A study of Homo sapiens with 7 samples.

Results

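The 10 genes described here make saturated fatty acids, activate them, lengthen them and insert double bonds: ACLY, FASN, ACACA, ACSL3, ELOVL1, ELOVL5, ELOVL6, SCD, FADS2 and FADS1. They were chosen by name from the pathway, with earlier results of these data known. The count table held a row for 8 of the 10, out of 14535 genes in all, and all 8 passed the filter on low counts and were among the 11230 genes tested. ACACA, an acetyl-CoA carboxylase, and ELOVL5, an elongase of polyunsaturated chains, are not analysed here.

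The cells were A549, an established human line from a lung adenocarcinoma that keeps epithelial features. One group of 3 libraries (doxorubicin 1 to 3) came from cells given 100 nM doxorubicin, a DNA-damaging drug that traps topoisomerase II, over 24 h. The other group of 4 libraries (stretch 4 to 7) came from cells under cyclic stretch at 15% elongation and 15 cycles/min, also over 24 h. In both groups, cells were stained for β-galactosidase, a marker of senescence, after 6 days, and the positive cells were sorted before RNA was taken. All libraries therefore share the cell line and the sort, the comparison is between 2 inducers, and no untreated or unsorted cells are analysed here. Whether these are independent cultures is not stated in the labels, and every p-value below measures only how far the libraries scatter, which may be technical.

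Cells build fatty acids in the cytosol from citrate: ATP citrate lyase (ACLY) releases acetyl-CoA, acetyl-CoA carboxylase makes malonyl-CoA from it, and fatty acid synthase (FASN) condenses these units into palmitate. Acyl-CoA synthetases such as ACSL3 activate the product, ELOVL enzymes extend it in the endoplasmic reticulum, and desaturases add double bonds, SCD to saturated chains and FADS2 and FADS1 to polyunsaturated ones. SREBP transcription factors drive many of these genes, and alveolar type II cells, which A549 is often used to model, use the pathway to make surfactant lipids.

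None of the 8 genes passed the threshold of an adjusted p of 0.05 in the comparison of stretch with doxorubicin (edgeR quasi-likelihood test), against 2.32% of all tested genes, of which 0.356% of all tested genes were higher in stretch and 1.97% were higher in doxorubicin. Their log2 differences, stretch minus doxorubicin, ran from -1.14 for ACLY to 1.01 for FADS1, with 4 genes on each side and a median of -0.08, beside 0.02 over all tested genes. An unadjusted p under 0.05 was reached by 2 of the 8, ACLY and FADS1, and by 23.2% of all tested genes. FADS1, at 2.01-fold the doxorubicin level in stretch, was the 1 of the 8 whose groups did not overlap. Over all tested genes, 11.5% had every stretch library above every doxorubicin library and 9.88% the reverse. The doxorubicin libraries disagreed with each other on most of the other genes, so that the sign for FASN, FADS2, ELOVL1 and ACSL3 depended on which of them entered the comparison.

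A few promoter sequences show the regulatory context of genes the results turn on. The letters are from RefSeq on GRCh38.p14, upstream of the annotated start of transcription and outside every exon of GENCODE release 29, written 5′ to 3′ on the gene's own strand. Capitals mark CCAAT boxes (CCAAT, bound by NF-Y) and GC boxes (GGGCGG, bound by SP1) on either strand. SCD is shown for its ratio to FASN, INSIG1 as the regulator that passed the threshold, and ACLY for its low unadjusted p. The stretches are SCD at chr10:100346983-100347123 (plus strand), INSIG1 at chr7:155297628-155297775 (plus strand) and ACLY at chr17:41919023-41919272 (minus strand).
SCD: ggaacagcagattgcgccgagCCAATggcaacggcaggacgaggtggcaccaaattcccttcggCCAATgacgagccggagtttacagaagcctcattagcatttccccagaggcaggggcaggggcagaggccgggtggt
INSIG1: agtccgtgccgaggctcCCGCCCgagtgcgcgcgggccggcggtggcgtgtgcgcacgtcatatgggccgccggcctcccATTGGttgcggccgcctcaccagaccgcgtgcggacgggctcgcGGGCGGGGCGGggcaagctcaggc
ACLY: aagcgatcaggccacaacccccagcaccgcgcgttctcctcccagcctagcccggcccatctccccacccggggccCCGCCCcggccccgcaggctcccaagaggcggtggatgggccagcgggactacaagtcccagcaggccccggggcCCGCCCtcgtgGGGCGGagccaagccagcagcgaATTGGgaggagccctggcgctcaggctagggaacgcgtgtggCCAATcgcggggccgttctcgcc

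Windows of 250 bases upstream of the start were searched on both strands for the 9 of the 10 genes with an entry, which have 13 windows since ACLY, FADS2 and the carboxylase gene have several starts. GC boxes were found in 10 of the 13 windows, against 42.6% of 35116 promoters of that length, and were missing from those of ELOVL5, 1 of FADS2 and 1 of the carboxylase. CCAAT boxes were found in 8 of the 13 (windows of ACLY, ACSL3, ELOVL1, ELOVL5, SCD and the carboxylase), against 32.0%. The windows of ACLY share bases with each other, as do those of FADS2, so some boxes are counted more than once. By gene, 8 of the 9 had a GC box and 6 a CCAAT box in any window. The sterol regulatory element in the form TCACNCCAC was found in 0 of the 13, against 0.883% of promoters, and the E-box CACGTG in 1 of the 13, that of ELOVL5, against 6.35%. INSIG1 held an E-box 55 bases before its start, nearer than the stretch printed above. Neighbouring copies of the GC box can share letters, as in INSIG1. A match describes the letters only, and a motif not found says nothing of the factor.

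Values below are CPM, counts divided by the size of the library and scaled to a common total, after TMM scaling, a factor per library that evens out composition. Each transcript is read through a short amplicon, so levels were compared between libraries for 1 gene and not between genes. Total counts ran from 2611766 to 4644650 in doxorubicin and from 5636494 to 7419798 in stretch, and 3 counts, the limit that a count of 0 allows, correspond to 0.567 to 2.59 CPM and to 0.321 to 0.401 CPM, a limit that covers counting error only. A single gene, EIF4A2, took 10.8% to 30.6% of the doxorubicin counts and 1.67% to 2.87% of the stretch counts, and the share of rows at 0 reached 21.4% in doxorubicin 2 and 4.17% to 4.88% in stretch. TMM factors were 0.730, 0.443 and 1.14 in doxorubicin 1 to 3 and 1.25 to 1.33 in stretch. Log-CPM profiles correlated at 0.754 to 0.884 within doxorubicin, at 0.939 to 0.978 within stretch and at 0.724 to 0.941 between the groups. Doxorubicin 2 stood furthest apart in depth and scaling, and results are given below with and without single doxorubicin libraries.

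The source of acetyl-CoA came first. ACLY (chr17:41866908-41930542, minus strand, exons shared in part with AC125257.2) stood at 543, 1255 and 351 CPM in doxorubicin 1 to 3, and at 352, 325, 317 and 306 CPM in stretch 4 to 7. Doxorubicin 1 and 2 lay above every stretch library, and doxorubicin 3 fell just inside the top of the stretch range. The means were 717 ± 476 CPM (SD, n = 3) and 325 ± 19.7 CPM (SD, n = 4), and the log2 difference of -1.14 (SE 0.41) did not pass (edgeR adjusted p = 0.134). Without doxorubicin 3 the difference was -1.43 (edgeR adjusted p = 0.00614), in a setting where 16.2% of all genes were called higher in doxorubicin. With doxorubicin 3 alone the difference was -0.10.

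FASN, the synthase itself (chr17:82078333-82098332, minus strand), stood at 179, 595 and 105 CPM in the doxorubicin libraries and at 218, 205, 167 and 194 CPM in the stretch libraries. One doxorubicin library lay above the stretch range, another below it and another inside it. Mean levels were 293 ± 264 CPM (SD, n = 3) in doxorubicin and 196 ± 21.6 CPM (SD, n = 4) in stretch, a log2 difference of -0.57 (SE 0.50, edgeR adjusted p = 0.509). It was -0.94 without doxorubicin 3, 0.47 without doxorubicin 2 and 0.91 with doxorubicin 3 alone, so these data give no direction for FASN.

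ACSL3, the acyl-CoA synthetase of lipid droplets and endoplasmic reticulum (chr2:222860934-222944639, plus strand, sharing exon bases with AC013476.1), stood at 37.3, 9.51 and 73.3 CPM in doxorubicin and at 54.6, 39.3, 53.7 and 71.1 CPM in stretch. The value in doxorubicin 2 rests on 11 counts. The order of the doxorubicin libraries was the reverse of that for FASN: doxorubicin 2 was lowest and doxorubicin 3 highest of all 7. The log2 difference was 0.41 (SE 0.51, edgeR adjusted p = 0.654), with 1.17 without doxorubicin 3 and -0.41 with doxorubicin 3 alone.

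Of the 2 elongases, ELOVL1, which lengthens saturated and monounsaturated very long chains (chr1:43363397-43368074, minus strand, overlapping MIR6734), stood at 42.9, 38.9 and 15.9 CPM in doxorubicin and at 22.8, 21.9, 23.2 and 19.0 CPM in stretch. Doxorubicin 1 and 2 lay above the stretch libraries and doxorubicin 3 below them, and the log2 difference was -0.56 (SE 0.36, edgeR adjusted p = 0.367). ELOVL6, which extends palmitate to stearate (chr4:110045846-110199199, minus strand), stood at 12.3, 25.1 and 19.8 CPM in doxorubicin and at 20.2, 31.5, 23.2 and 32.0 CPM in stretch. Its groups overlapped, and the log2 difference of 0.50 (SE 0.35, edgeR adjusted p = 0.394) stayed on the stretch side in all 17 alternatives run, from 0.27 to 1.25.

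SCD, the stearoyl-CoA desaturase that makes oleate and palmitoleate (chr10:100347124-100364834, plus strand), stood at 458, 726 and 129 CPM in doxorubicin and at 750, 712, 734 and 641 CPM in stretch. Doxorubicin 1 and 3 lay below every stretch library, and doxorubicin 2 lay among them. From lowest to highest, the level of SCD spread 5.62-fold within doxorubicin and 1.17-fold within stretch. A p-value with the spread taken from stretch alone leaves out the doxorubicin spread, so it cannot decide whether the groups differ. Means were 438 ± 299 CPM (SD, n = 3) and 709 ± 47.9 CPM (SD, n = 4), and the log2 difference of 0.70 (SE 0.48, edgeR adjusted p = 0.394) did not pass. Against doxorubicin 3 alone it was 2.47 (edgeR adjusted p = 0.00635, with the spread taken from stretch), where 0.0810% of genes were called higher in stretch, and without doxorubicin 3 it was 0.29.

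The polyunsaturated desaturases lie next to each other on chromosome 11. FADS2, the delta-6 desaturase (chr11:61792980-61867354, plus strand), stood at 663, 1997 and 226 CPM in doxorubicin and at 694, 573, 681 and 569 CPM in stretch. FADS2 had the widest spread among doxorubicin libraries of the 8, 8.83-fold from lowest to highest, and its log2 difference of -0.61 (SE 0.56, edgeR adjusted p = 0.532) became -1.05 without doxorubicin 3 and 1.49 with it alone.

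FADS1, the delta-5 desaturase (chr11:61799625-61829318, minus strand), stood at 95.7, 155 and 98.1 CPM in doxorubicin and at 226, 225, 266 and 214 CPM in stretch. Every stretch library lay above every doxorubicin library, a pattern of 11.5% of all tested genes, while 9.88% had every doxorubicin library above every stretch library. Means were 116 ± 33.4 CPM (SD, n = 3) and 233 ± 23.1 CPM (SD, n = 4), and the log2 difference was 1.01 (SE 0.30), with an edgeR adjusted p of 0.0916. The direction held in all 17 alternatives, from 0.90 to 1.83, and the highest adjusted p was 0.278. FADS1 passed the threshold in 4 of them, each given here with the share of all genes called higher in stretch. It passed with DESeq2 (adjusted p = 0.0129, 3.09%), without doxorubicin 2 (edgeR adjusted p = 0.0372, 0.444%) and without doxorubicin 3 (edgeR adjusted p = 0.0349, 16.0%). The lowest value came from limma-voom with library quality weights (adjusted p = 3.60e-05, 23.4%). FADS1 and FADS2 share exon bases in the annotation on opposite strands, FADS1 with MIR1908 and FADS2 with FEN1 as well, and the strandedness of the counting is not given in the sources used here, so reads in the shared bases cannot be told apart.

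**Figure D1:**
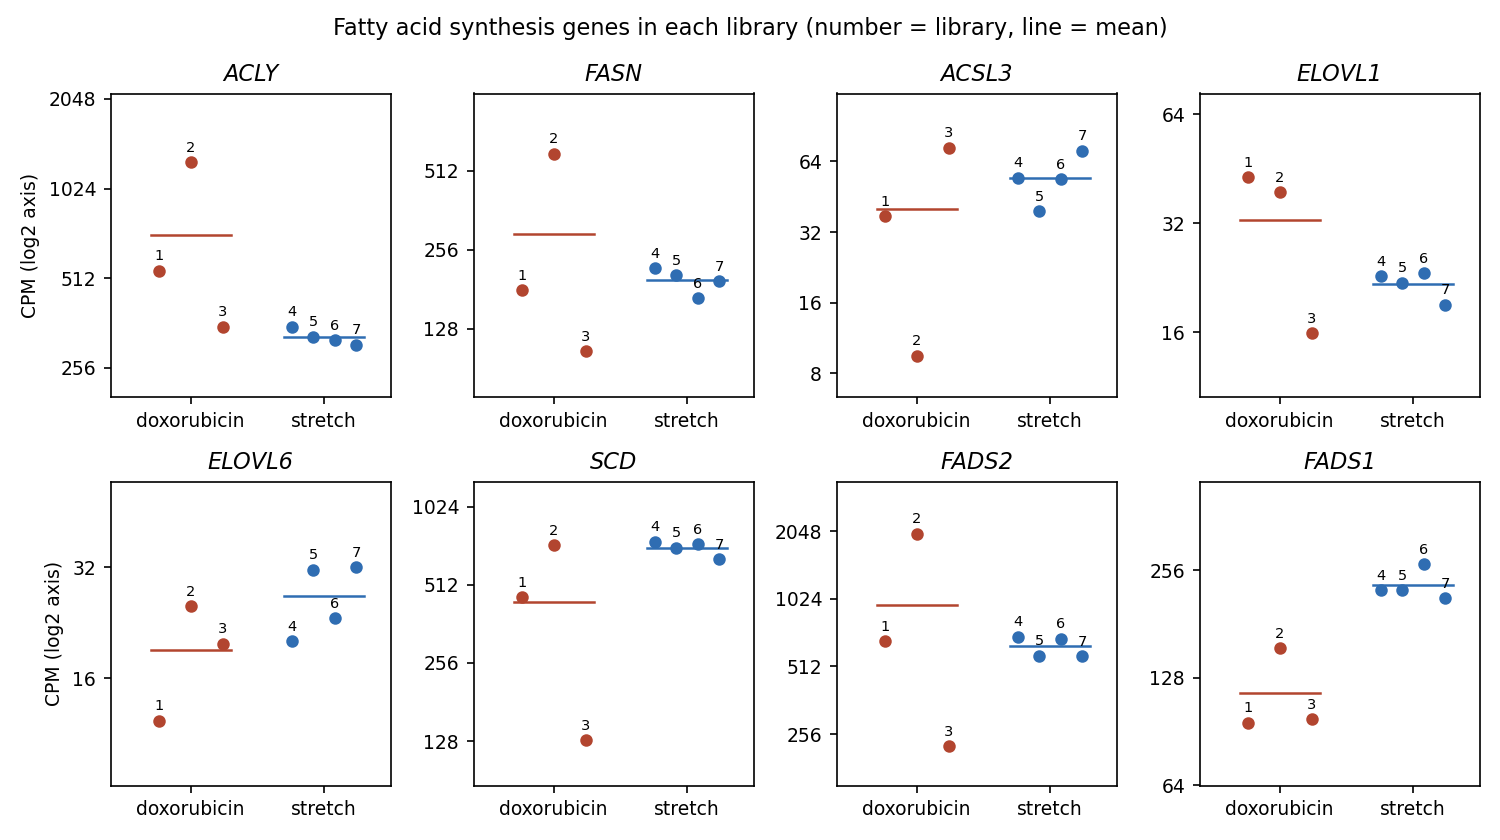
Level of each of the 8 genes in CPM (log2 axis, 1 panel per gene, each panel with its own range) in the 3 doxorubicin libraries (red) and the 4 stretch libraries (blue), numbered by library, with a line at the group mean. The stretch libraries are spread over 1.15-fold (ACLY) to 1.81-fold (ACSL3). The doxorubicin libraries are spread over at least 3.57-fold in all but FADS1, ELOVL6 and ELOVL1, and FADS1 is the panel in which the groups do not overlap.

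The doxorubicin libraries were spread more widely over these genes than the stretch libraries were. Highest over lowest level within doxorubicin was 8.83-fold for FADS2, 7.71-fold for ACSL3, 5.66-fold for FASN, 5.62-fold for SCD, 3.57-fold for ACLY, 2.70-fold for ELOVL1, 2.04-fold for ELOVL6 and 1.62-fold for FADS1. The median over all tested genes above 0 in each doxorubicin library was 2.46-fold, and 6 of the 8 lay above it. Within stretch the same ratio was 1.15-fold to 1.81-fold for the 8 genes, 1 of them above the all-gene median of 1.60-fold. Doxorubicin 2 held the highest level of 6 of the 8 genes among the doxorubicin libraries, and doxorubicin 3 held the lowest level of 5. The shares of all tested genes are not given here for these counts, so they describe the libraries and not a trait of these genes.

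Each doxorubicin library was also set against the range of the 4 stretch libraries. Doxorubicin 1 lay below that range for 4 of the 8 genes and above it for 2, against 35.6% and 35.3% of all tested genes. Doxorubicin 2 lay below it for 2 and above it for 4, against 48.0% and 35.3%. In doxorubicin 3, the most deeply sequenced of its group, 6 of the 8 lay below the stretch range and 1, ACSL3, above it, against 28.3% and 28.4% of all genes. The stretch mean over the doxorubicin 3 level was 5.49-fold for SCD, 2.78-fold for FADS2, 2.37-fold for FADS1, 1.86-fold for FASN, 1.37-fold for ELOVL1, 1.35-fold for ELOVL6, 0.925-fold for ACLY and 0.746-fold for ACSL3.

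Counts of genes past the threshold moved with the library in the same way. Without doxorubicin 3, FADS1 was called higher in stretch, beside 16.0% of all genes, and ACLY, ELOVL1 (edgeR adjusted p = 0.0300) and FADS2 (edgeR adjusted p = 0.0435) were called higher in doxorubicin, beside 16.2%. With limma-voom quality weights, which gave doxorubicin 1 a weight of 3.87 and doxorubicin 2 and 3 weights of 0.258 and 0.204, 3 of the 8 were called higher in stretch and 2 higher in doxorubicin, beside 23.4% and 23.8% of all genes. The median of the 8 was -0.29 without doxorubicin 3 and 0.69 with doxorubicin 3 alone. Scaling by library totals alone put the median of the 8 at 0.72, but moved the median of all genes to 0.71.

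**Figure D2:**
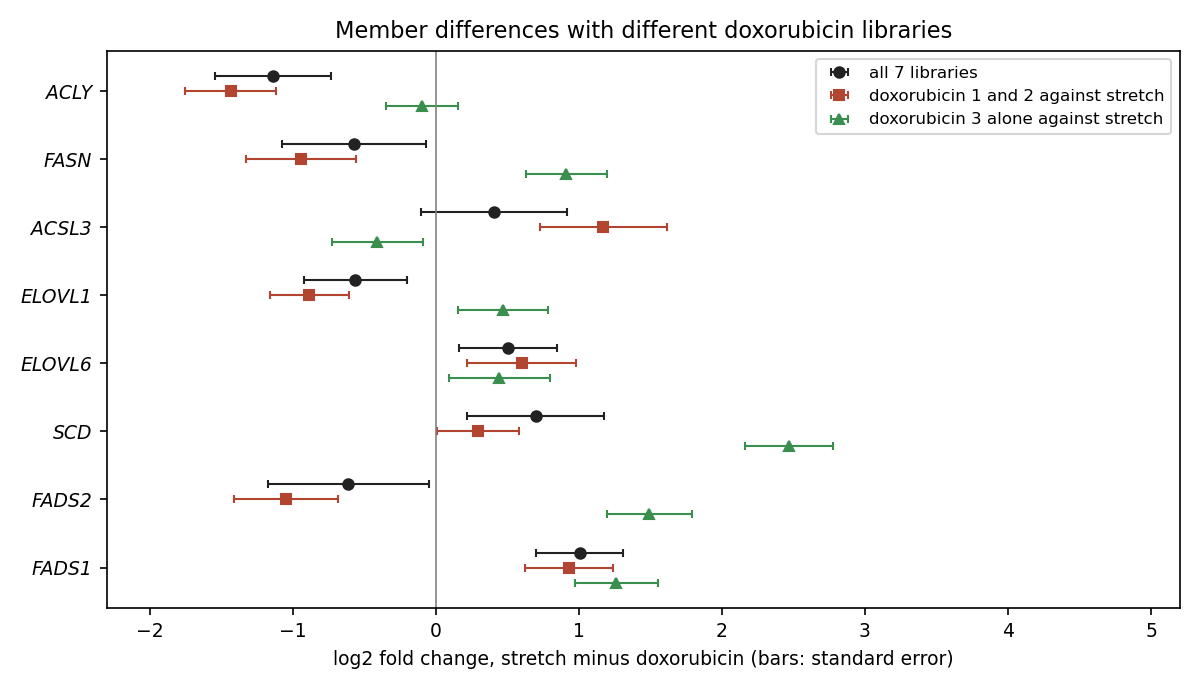
Log2 fold change of each of the 8 genes, stretch minus doxorubicin, with bars of 1 standard error, for all 7 libraries (black circles), for doxorubicin 1 and 2 against stretch (red squares) and for doxorubicin 3 alone against stretch (green triangles). FASN, FADS2, ELOVL1 and ACSL3 change side between the last pair of settings, while FADS1, ELOVL6 and SCD lie on the stretch side and ACLY on the doxorubicin side in each.

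The summed counts of the 8 genes took 0.148%, 0.213% and 0.116% of the doxorubicin libraries and 0.263% to 0.311% of the stretch libraries. With EIF4A2 and TAF1D, 2 genes with large shares of the doxorubicin counts, left out of the totals, the shares were 0.182%, 0.326% and 0.136% in doxorubicin and 0.273% to 0.323% in stretch, and the groups overlapped. The part of the composition of these libraries in the result was not tested. In bulk libraries such as these, fewer cells of a type and less RNA per cell cannot be told apart.

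Rank within a library does not use a scaling factor, and was read for 1 gene at a time. FADS1 stood at percentiles 86.6, 90.2 and 89.2 of all genes in doxorubicin and at 96.0 to 96.7 in stretch. SCD ranked at percentiles 97.8, 98.3 and 92.6 in doxorubicin and at 98.9 to 99.1 in stretch. The ranks of both lay higher in every stretch than in every doxorubicin library, as did those of 10.6% of all tested genes. ACLY lay the other way, at percentiles 98.1, 99.0 and 98.0 in doxorubicin and at 97.4 to 97.9 in stretch without overlap, as did 10.8% of all tested genes, and the ranks of the other 5 genes overlapped. For FASN the percentiles were 93.4, 97.9 and 90.0 in doxorubicin, on both sides of the stretch range of 93.8 to 96.0. In CPM the groups of SCD and ACLY overlapped, so rank and CPM differ for these genes.

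Ratios between 2 members within a library also need no scaling, and 3 of the 5 planned could be formed. SCD over FASN, desaturation against synthesis, was 2.55, 1.22 and 1.23 in doxorubicin and 3.44, 3.48, 4.39 and 3.31 in stretch, in counts. Every stretch library exceeded every doxorubicin library, including doxorubicin 3, and the log2 ratio was 0.65 ± 0.61 (SD, n = 3) against 1.86 ± 0.19 (SD, n = 4). The difference of 1.21, or 2.32-fold, had an exact permutation p of 0.0571, made two-sided by doubling the one-sided share of splits. In this doubled form 0.0571 is the smallest p that 3 against 4 libraries allow. Adjustment of the permutation p over the 3 ratios gave 0.171. The difference kept its direction in all 10 alternatives for ratios, between 1.03 and 1.57.

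The other ratios overlapped between the groups. FADS1 over FADS2 was 0.145, 0.0777 and 0.434 in doxorubicin and 0.325, 0.393, 0.392 and 0.376 in stretch, with a log2 difference of 1.13 (exact permutation p = 0.286, adjusted 0.343). ELOVL6 over FASN was 0.0698, 0.0428 and 0.190 in doxorubicin and 0.0927, 0.154, 0.139 and 0.165 in stretch, with a log2 difference of 0.70 (exact permutation p = 0.343, adjusted 0.343). In both, doxorubicin 3 was the highest of all 7 libraries and doxorubicin 1 and 2 the lowest. Of the 7 other members, SCD and FADS1 had a ratio over FASN higher in every stretch than in every doxorubicin library, against 1.15% of all tested genes. Only this direction was counted, SCD over FASN is the ratio given above, and FADS1 over FASN was not planned. The separation for FADS1 was narrow. FADS1 and FASN had 519 and 556 counts in doxorubicin 3, and 1690 and 1633 counts in stretch 4.

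**Figure D3:**
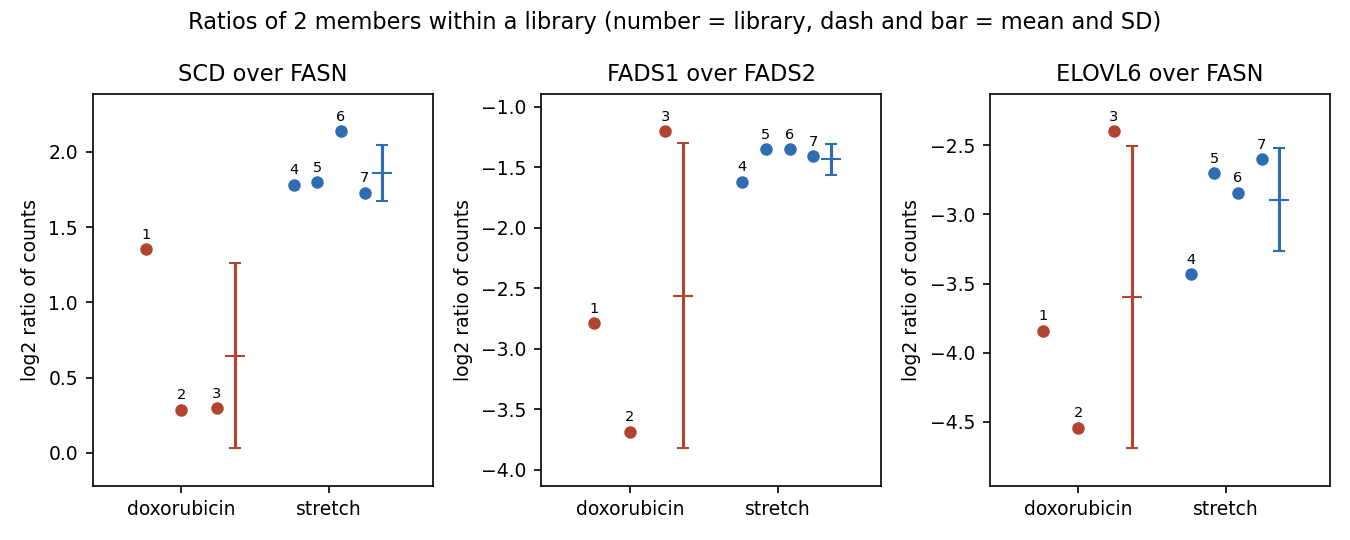
Log2 ratio of the counts of 2 members within each library (points, numbered by library) with the group mean and SD beside them, for doxorubicin (red, n = 3) and stretch (blue, n = 4). SCD over FASN is higher in each stretch library than in each doxorubicin library, while doxorubicin 3 lies above the stretch libraries in the other 2 panels.

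The genes most like FASN and SCD over the 7 libraries were found among 7493 genes with a mean of at least 10 CPM, by the root-mean-square distance between centred log2 CPM profiles. Nearest to FASN were EDC3, a decapping cofactor of mRNA (distance 0.182), DTX3 (0.209), the zinc transporter SLC39A7 (0.214), CNOT3 of the CCR4-NOT deadenylase (0.224) and PIGO of the glycosylphosphatidylinositol anchor pathway (0.226). Among the nearest to SCD were the UFM1 protease UFSP2 (0.358), the glutamine transporter SLC1A5 (0.384), the succinate dehydrogenase subunit SDHB (0.386) and SEC14L4 (0.386). SLC1A5 stood at 81.4, 120.2 and 34.6 CPM in doxorubicin and at 77.4, 128, 135 and 134 CPM in stretch. These profiles share the libraries and their scaling, and the distances are a description.

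The 6 lists of other lipid genes held 121 genes, of which 98 were tested and 2 passed the threshold, 2.04% against 2.32% of all tested genes. INSIG1 was higher in stretch and MBOAT7 higher in doxorubicin. Among the 24 tested regulators of lipogenic transcription, INSIG1 was the 1 called, 13 lay on the doxorubicin side, and the median log2 difference was -0.19, or 0.42 with doxorubicin 3 alone.

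INSIG1, a sterol-sensing protein that holds SCAP and SREBP in the endoplasmic reticulum and is itself an SREBP target (chr7:155297776-155310235, plus strand), stood at 3.97, 5.19 and 5.48 CPM in doxorubicin and at 13.8, 16.5, 12.2 and 17.2 CPM in stretch. The doxorubicin values rest on 10, 6 and 29 counts and the stretch values on 103 to 160. The groups did not overlap, with stretch above, as in 3 of the 24 tested regulators and 11.5% of all tested genes. The log2 difference was 1.60 (SE 0.35, edgeR adjusted p = 0.0413). It kept its direction in all 17 alternatives, between 1.46 and 2.29. INSIG1 passed in 9 of them, with the lowest adjusted p under library quality weights, where 23.4% of all genes were called higher in stretch. It did not pass without doxorubicin 1, without any 1 of the stretch libraries, with library totals, with limma-voom or with doxorubicin 3 alone, and the adjusted p ran from 0.00012 to 0.180.

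The other regulators of the SREBP system did not pass. SREBF1, which encodes the SREBP that favours fatty acid genes, stood at 36.5, 57.1 and 23.6 CPM in doxorubicin and at 42.5 to 62.4 CPM in stretch (log2 difference 0.52, edgeR adjusted p = 0.377). SREBF2, which encodes the SREBP that favours cholesterol genes, differed by 0.11 (edgeR adjusted p = 0.902). SCAP, the escort of SREBP, stood at 201, 561 and 71.1 CPM in doxorubicin and at 70.8 to 115 CPM in stretch (log2 difference -1.48, edgeR adjusted p = 0.145, and 0.49 with doxorubicin 3 alone). INSIG2, the paralogue of INSIG1, stood at 1.19, 0 and 3.59 CPM in doxorubicin, where the 0 allows up to 2.59 CPM, and at 4.54 to 6.67 CPM in stretch (log2 difference 1.40, edgeR adjusted p = 0.184). MBTPS2, the site-2 protease that releases SREBP, differed by 1.12 (edgeR adjusted p = 0.0797). Its stretch libraries all lay above its doxorubicin libraries, as in 11.5% of all tested genes.

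Of the 8 tested genes of precursor supply and other synthesis steps none passed, with a median of 0.63 (0.18 with doxorubicin 3 alone) and 6 on the stretch side. The lowest p belonged to CS, the citrate synthase that feeds ACLY, at 12.3, 9.51 and 22.3 CPM in doxorubicin and 31.6 to 50.5 CPM in stretch (log2 difference 1.43, edgeR adjusted p = 0.0615). OXSM, a mitochondrial ketoacyl synthase, followed at 0.85 (edgeR adjusted p = 0.154). Both had groups that did not overlap, with stretch above, as did 11.5% of all tested genes.

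Of the 8 other elongation and desaturation genes none passed, with a median of 0.13. FADS3, a relative of FADS1 and FADS2, stood at 36.1, 75.2 and 12.5 CPM in doxorubicin and at 10.5 to 13.6 CPM in stretch (log2 difference -1.74, edgeR adjusted p = 0.0793), and its difference was -0.04 with doxorubicin 3 alone. ELOVL7, another elongase, differed by -0.69 (edgeR adjusted p = 0.294).

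Among the 14 tested acyl-CoA synthetases, thioesterases and acyl-CoA binding proteins none passed, and the median was 0.27. ACSL1, a synthetase of long chains, stood at 8.74, 7.78 and 17.2 CPM in doxorubicin and at 25.8 to 33.8 CPM in stretch (log2 difference 1.27, edgeR adjusted p = 0.0768). DBI, the acyl-CoA binding protein, stood at 135, 38.9 and 205 CPM in doxorubicin and at 344 to 443 CPM in stretch (log2 difference 1.65, edgeR adjusted p = 0.0843). In both genes every stretch library lay above every doxorubicin library, as in 3 of the 14, while 1 of the 14 had the reverse. The shares of all tested genes were 11.5% and 9.88%.

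Glycerolipid and phospholipid assembly had 1 of 19 tested genes called, and a median of -0.07. MBOAT7, an acyltransferase that places arachidonate on lysophosphatidylinositol, stood at 428, 693 and 117 CPM in doxorubicin and at 105, 101, 88.0 and 82.7 CPM in stretch. Every doxorubicin library lay above every stretch library, as in 3 of the 19 tested genes and 9.88% of all tested genes. The log2 difference of -2.13 (SE 0.49) passed narrowly (edgeR adjusted p = 0.049996). It passed in 4 of 17 alternatives and was -0.30 with doxorubicin 3 alone. AGPAT1, which acylates lysophosphatidic acid, stood at 139, 361 and 33.5 CPM in doxorubicin and at 29.7 to 41.0 CPM in stretch (log2 difference -2.24, edgeR adjusted p = 0.0683), and 0.17 with doxorubicin 3 alone.

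Fatty acid oxidation, the opposite pathway, had 0 of 25 tested genes called and a median of 0.01. Unadjusted p-values under 0.05 were reached by 3 of the 25, against 23.2% of all tested genes. Doxorubicin lay above stretch without overlap in 4 of the 25 and stretch above doxorubicin in 3, against 9.88% and 11.5% of all tested genes. ACADVL, the dehydrogenase of very long acyl-CoA, stood at 90.1, 129 and 76.0 CPM in doxorubicin and at 54.7, 40.5, 39.6 and 38.8 CPM in stretch. Its groups did not overlap (log2 difference -1.17, edgeR adjusted p = 0.0630). CPT1B, a carnitine palmitoyltransferase, stood at 15.1, 3.46 and 25.0 CPM in doxorubicin and at 32.9 to 59.7 CPM in stretch (log2 difference 1.48, edgeR adjusted p = 0.117).

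**Figure D4:**
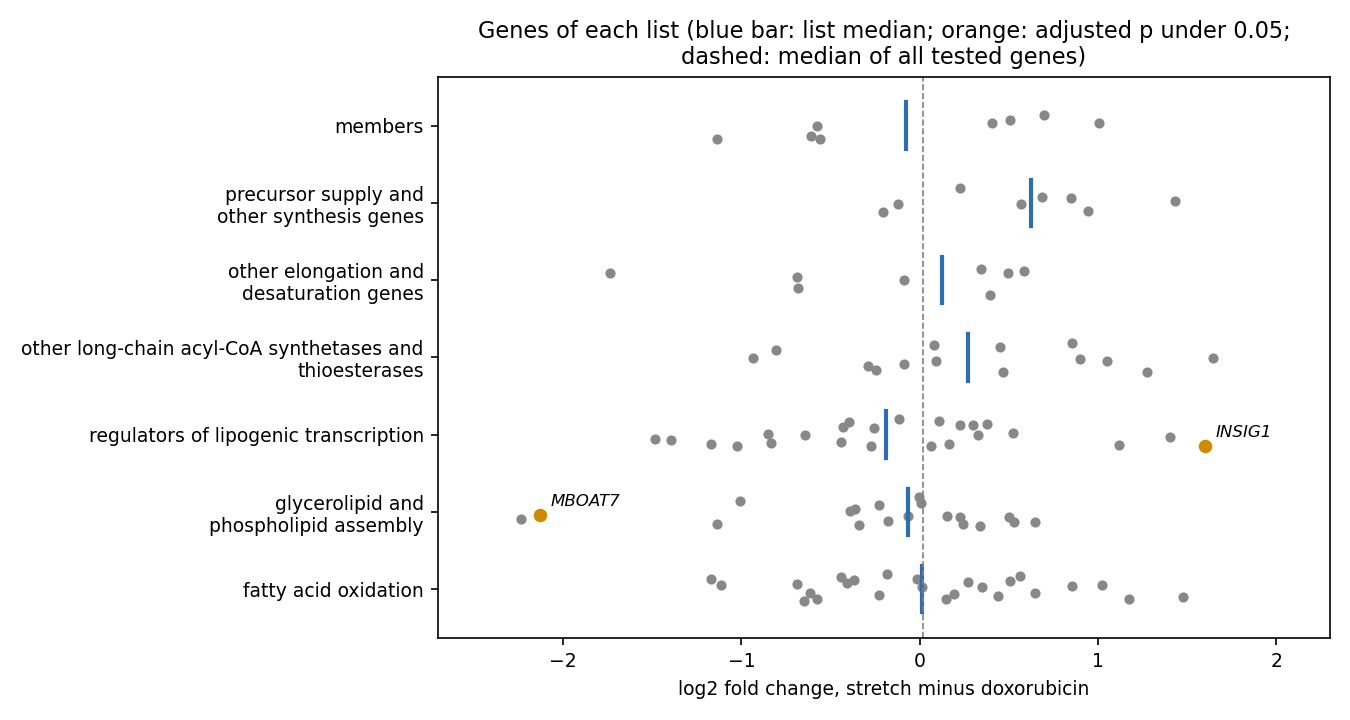
Log2 fold change, stretch minus doxorubicin, of each tested gene (points) of the synthesis genes described here ("members") and of the 6 other lists, with the list median as a blue bar and the median over all tested genes as a dashed line. INSIG1 and MBOAT7, in orange, are the genes past an adjusted p of 0.05, and the medians run from -0.19 for the regulators to 0.63 for precursor supply.

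Markers of the labelled and of other cell types were read beside these results. The 8 epithelial markers summed to 2112 to 3641 CPM in doxorubicin and 1047 to 1596 CPM in stretch, with KRT18 called higher in doxorubicin (log2 difference -2.20, edgeR adjusted p = 0.0199). Fibroblast markers (6 of 8 with a row) summed to 18.7 to 45.0 and 15.5 to 16.8 CPM, and adipocyte markers (2 of 6, PLIN1 and CIDEC) to 0.865 to 3.40 and 1.18 to 2.54 CPM. Leukocyte markers (4 of 7) summed to 102 to 139 and 57.6 to 61.1 CPM, with CD68, a lysosomal protein, called higher in doxorubicin (log2 difference -2.02, edgeR adjusted p = 0.0158). The endothelial marker with a row, CDH5, stood at 0 in every doxorubicin library and at 0 to 0.963 CPM in stretch. KRT8, KRT18, KRT19, CDH1 and ELF3, which define epithelial cells, were above the limit of a 0 count in all 7 libraries, while EPCAM stood at 0.865 to 4.54 CPM in doxorubicin, in doxorubicin 2 under that limit, and at 10.2 to 14.6 CPM in stretch. CLDN4 was at that limit in doxorubicin 2 (3 counts), and CLDN7 had 1, 0 and 4 counts in doxorubicin 1 to 3. The part of the differing marker levels in the results was not tested.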

How the data were processed

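Per the labels' protocols, Trizol was used to extract RNA and an Ion AmpliSeq kit to amplify 1 short stretch of each human transcript. PCR reads of this kind carry no molecular identifiers. The authors deposited 1 table of estimated counts, rounded to whole numbers and without scaling. The submitters' processing notes name fastp 0.20.1, Salmon 1.9 and GRCh38. Of 14647 rows, those of 64 symbols in several rows were summed and Metazoa_SRP, at most 0.00861% of a library, was left out, giving 14535 genes. Columns were matched to libraries through the sample descriptions.

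Stretch was compared with doxorubicin in R 4.3.3 with edgeR 4.0.16 (filterByExpr, TMM, glmQLFit with robust estimation, glmQLFTest), with Benjamini-Hochberg adjustment over 11230 genes. limma 3.58.1 and DESeq2 1.42.0 were alternatives, with other scaling factors, filters and left-out libraries. Standard errors are the log2 difference over the square root of F. Ratios used counts plus 0.5 and an exact permutation test over 35 splits, with the one-sided share doubled to give the two-sided p. No pair of libraries agreed within sampling noise (chi-square per degree of freedom at least 8.02 in 21 pairs). The fitting script was tested on simulated data. The members and lists were chosen with earlier results of these data known. Named were the members, SREBF1, SREBF2, SCAP, INSIG1 and INSIG2, each list's genes past the threshold or the 2 with the lowest p, and the 5 genes each most like FASN and SCD (1 of them is not reported here); KRT18, CD68 and the markers' other names were added after their values were seen. Coordinates are from GENCODE 29. ACACA and ELOVL5 are not analysed here, so ratios of ACACA to ACLY and of ELOVL6 to ELOVL5 were not formed.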

Additional observations from a re-analysis of the deposited data

Results flagged for a closer look

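ACADVL, the dehydrogenase of very long acyl-CoA in fatty acid oxidation, stood at 54.7 CPM in stretch library 4, apart from 38.8 to 40.5 CPM in the other 3 stretch libraries. The gap to the nearest library was 0.892 of the range of the group, above Dixon's 95% limit for 4 samples. It was the 1 flagged among 27 sets of stretch values, from the named genes and the 3 ratios, and chance flags about 1 in 20 groups.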

How the results depend on the processing

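Over 17 alternatives, the 8 members gave 136 values, of which 113 kept direction and side of the threshold, 12 passed it anew and 11 changed sign. The other named genes gave 214, 31 and 5 such values, and 21 that no longer passed. The members called were 0 with edgeR on all libraries (2 at an unadjusted p under 0.05, which 23.2% of all tested genes reached). They were 1 with DESeq2, where 1315 of 13112 genes were called, and 5 with quality weights, beside 47.2% of all genes. With 1 library left out they were 0 to 4, the 4 without doxorubicin 3, beside 32.2% of all genes. The pathway genes called, 2 with all libraries, were 1 with RLE, with upper-quartile factors, at a mean of at least 10 CPM and with EIF4A2 and TAF1D left out; 0 with library totals, limma-voom and doxorubicin 3 alone; 13 with DESeq2, where 1315 of 13112 genes were called; 44 with quality weights (47.2% of all genes); and 0 to 28 with 1 library left out, the 28 without doxorubicin 3 (32.2% of all genes). Library totals moved the median of the members to 0.72 and changed the sign of FASN (0.55), ELOVL1 (0.33), FADS2 (0.57) and ELOVL7 (0.0022); that scaling moved the median of all genes by 0.69. Quality weights changed the sign of FASN (0.054) and SREBF2 (-0.00037), leaving out doxorubicin 2 that of FASN (0.47), FADS2 (0.51) and ACSL3 (-0.022), and leaving out doxorubicin 3 that of SREBF2 (-0.27). Over single left-out libraries FASN ran from -0.94 to 0.47, FADS2 from -1.05 to 0.51 and ACSL3 from -0.022 to 1.17. With doxorubicin 3 alone the sign changed for FASN (0.91), ELOVL1 (0.47), FADS2 (1.49), ACSL3 (-0.41), SCAP (0.49), AGPAT1 (0.17), FADS1 over FADS2 (-0.23) and ELOVL6 over FASN (-0.49). The cause was not tested. No paired analysis was possible because the groups share no replicate number. Depth limits several genes in doxorubicin 2: ACSL3, ELOVL6 and ELOVL1 had 11, 29 and 45 counts there. INSIG2, CPT1B, INSIG1, ACSL1 and ELOVL7 had 0, 4, 6, 9 and 9, and OXSM, CS and MBTPS2 had 10, 11 and 15.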
